A study of Mus musculus with 6 samples.

Results

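A set of 10 genes that build, decorate, or regulate neuronal microtubules was followed in RNA bisulfite sequencing (RNA BS-seq) libraries of depolarized mouse cortical neurons. The genes were taken as a named list and comprise the tubulins Tuba1a, Tubb2a, Tubb2b, and Tubb3, the microtubule-associated proteins Map1a, Map1b, Map2, and Mapt, and the stathmins Stmn1 and Stmn2. They are 10 of 16822 named genes, and 12335 of the 5240657 cytosine positions listed in at least 1 library carry one of these names. The cells were cortical neurons of wild-type (WT) C57BL/6 embryos of both sexes, pooled, taken at E16.5 and grown in vitro for 7 days. All cultures, the 0 h controls included, were silenced overnight with 1 μM tetrodotoxin (TTX) and 100 μM DL-AP5 and KCl was then added to 55 mM, for 2 h or 6 h, or not at all (0 h). Each time point has 2 biological replicates, so that 6 libraries of poly(A) RNA were compared, and the neurons were not sorted from the other cells of the culture.

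Microtubules are hollow polymers of α- and β-tubulin dimers that serve as tracks for axonal and dendritic transport. Tubb3 encodes the β-tubulin that is used as a marker of neurons (the antigen of the Tuj1 antibody), Tuba1a the main α-tubulin of developing neurons, and Tubb2a and Tubb2b a pair of closely related β-tubulins. The proteins of Map1a, Map1b, Map2, and Mapt (tau) bind and stabilise the polymer, Map2 mostly in dendrites and tau mostly in axons, whereas stathmins bind free tubulin dimers and promote disassembly. In RNA BS-seq, bisulfite converts unmethylated cytosines to uracil, read as T, and 5-methylcytosine (m5C) is still read as C. The methylation level is the share of unconverted reads at a cytosine, and coverage is the number of reads over it. A cytosine was listed in a library with at least 10 reads and at least 1 unconverted read.

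The sequences that carry the methylation results are shown here as listed, 5′ to 3′ on the RNA strand with T for U, 10 nt on either side of a cytosine, and coordinates refer to mm10. The central capital marks the measured cytosine, and a capital GGG marks 3 guanines that begin 2 nt after it (the pattern CNGGG on the transcribed strand), a context known from cytosines methylated by NSUN2. The Map1b cytosine is at codon 318 in the coding sequence (minus strand, window chr13:99435249-99435269), the Map1a cytosine at codon 1070 (plus strand, chr2:121301903-121301923), the Mapt cytosine at codon 144 (plus strand, chr11:104306655-104306675), and the Tuba1a cytosine at codon 142 (minus strand, chr15:98950954-98950974). Both Map2 cytosines are in the 3′ UTR (plus strand, chr1:66441079-66441099 and chr1:66441088-66441108).
Map1b: gacaatttgcCtGGGatcaat
Map1a: acatcaatcaCggagtgtgac
Mapt: cgccacacctCgGGGagcagc
Tuba1a: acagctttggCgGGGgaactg
Map2 first: tggagaagtaCagtcttttct
Map2 second: acagtcttttCttacatgttt

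The libraries listed between 1559828 and 2374392 methylated cytosine positions, with a median coverage of 324 to 480 reads. At 45722 cytosines covered 5000 times or more whose level stayed under 1% in all libraries, 0.0824% to 0.0852% of reads were unconverted in 5 libraries and 0.117% in replicate 1 of 6 h, which stands apart. Activity genes moved with the labelled time of KCl. Fos, an immediate early gene, had a listed coverage, scaled to a sum of 1000000 per library over nuclear genes, of 3.79 and 1.37 before KCl, 1027 and 1044 after 2 h, and 489.8 and 464 after 6 h. Summed over 6 neuronal markers (Rbfox3, Snap25, Syp, Syn1, Gap43, and Elavl3), listed coverage was 5136 to 5506 before KCl, 4796 to 5473 after 2 h, and 4820 to 4931 after 6 h. Listed coverage counts a cytosine only in libraries where it has an unconverted read. These sums thus also depend on listing, and replicate 1 of 6 h listed the most positions. Markers of other cells were present as well. The 4 astrocyte markers summed to 1158 to 1238 before KCl, 1056 to 1128 after 2 h, and 829 to 891 after 6 h, the 4 GABAergic markers to 477 to 557, 626 to 754, and 1157 to 1242, the 4 glutamatergic markers to 490 to 526, 499 to 547, and 584 to 645, the 4 oligodendrocyte lineage markers to 427 to 536, 283 to 299.8, and 491 to 569 at the 3 time points, the progenitor markers to 137 to 156, 69.6 to 118, and 167 to 203 with Sox2 at 0, and the microglial markers to 12.5 to 18.5, 7.86 to 8.44, and 5.38 to 12.8 with Csf1r and Tmem119 at 0. In both 6 h libraries, the neuronal and astrocyte sums were lower and the GABAergic, glutamatergic, and progenitor sums higher than in either control. The genes within a sum did not all move together. Of the neuronal markers, Gap43 (2929 and 3001, against 3286 and 3849 at 0 h) and Syp were lower in both 6 h libraries. Snap25 (515 and 539, against 396 and 447) and Elavl3 were higher, and Rbfox3 and Syn1 overlapped with 0 h. Of the progenitor markers, Nes was higher (168 and 149, against 58.0 and 64.9) and Hes5 lower (14.2 and 11.3, against 56.5 and 76.4). Mki67 overlapped with 0 h. In both 2 h libraries, the astrocyte, oligodendrocyte, progenitor, and microglial sums were lower and the GABAergic sum higher than in either control. Within these sums, Gad1 was higher at 2 h (648 and 531, against 443 and 387 at 0 h). Gad2 was lower (31.5 and 22.9, against 38.3 and 36.1). Olig1 was lower (171 and 194, against 307 and 357), and Olig2 overlapped with 0 h (40.1 and 34.4, against 29.3 and 34.7). Hes5 was lower (11.3 and 15.7), and Nes lay on either side of the controls (84.5 and 49.9). Tubulin coverage, given next, differed at the same times, and the part of these sums in those changes was not tested.

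Tubb3 coverage fell by 51.4% at 2 h of depolarization and fell by 58.8% at 6 h, and the other β-tubulins of the set were lower as well, while Tuba1a, Map1b, Map2, and both stathmins did not pass the test described next in any comparison. To follow RNA abundance, coverage was summed for each gene over the cytosines listed in all 6 libraries and scaled in the same way, and 1712 genes with at least 20 such cytosines were tested with limma. At 2 h against 0 h, 4 of the 10 genes were lower (Tubb3, Map1a, Tubb2b, and Tubb2a), against 14.8% of all genes tested, and 0 were higher, against 12%. At 6 h against 0 h, 5 were lower (the same 4 and Mapt), against 32.1%, and 0 were higher, against 26.4%. At 6 h against 2 h, only Tubb3 was lower, against 24.9%, and 0 were higher, against 21.1%. The median log2 difference of the 10 genes was -0.21 at 2 h and -0.17 at 6 h against 0 h, and that of all genes tested was -0.04 and -0.03. In bulk RNA, fewer cells of a type and less RNA per cell cannot be told apart.

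**Figure D1:**
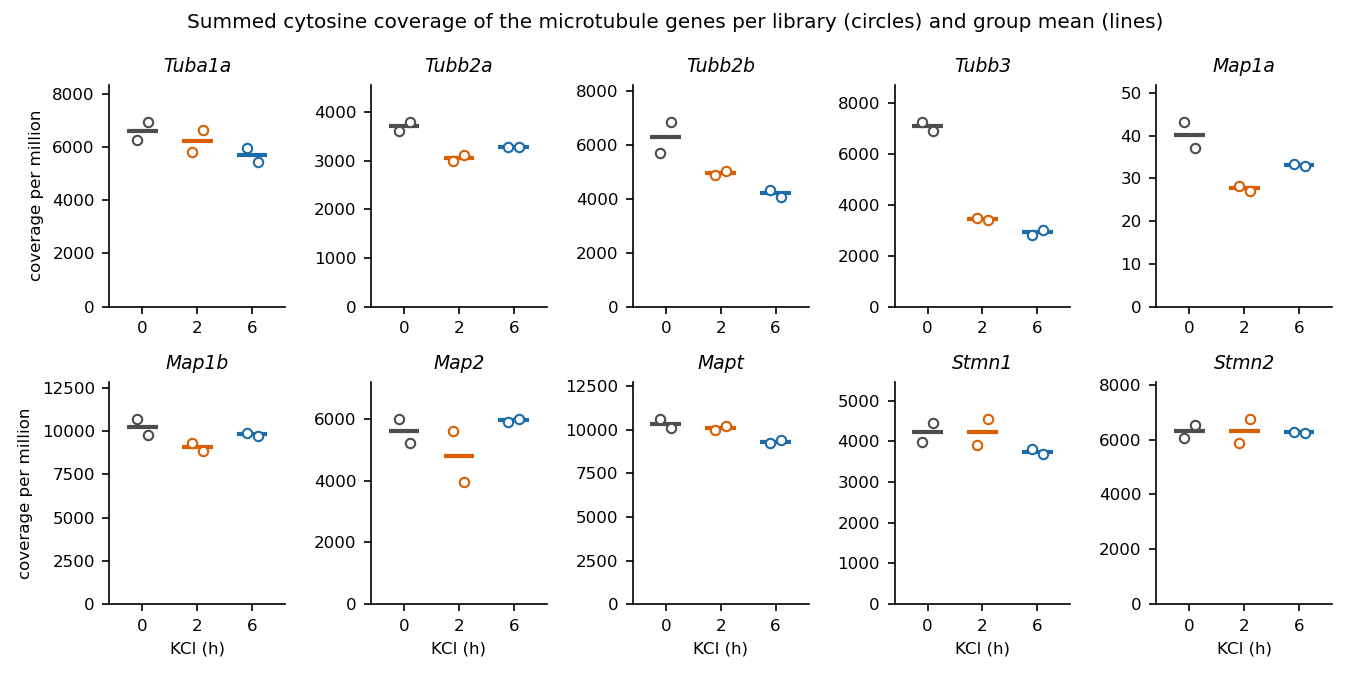
Scaled coverage (to a sum of 1000000 per library; summed over the cytosines of a gene listed in all 6 libraries; y axis from 0, a scale of its own for each gene) against hours of KCl (x axis). Circles are the 2 replicates and lines their mean. Tubb3 sits at 6913 and 7268 at 0 h and between 2822 and 3488 in the 4 depolarized libraries, and Stmn2 overlaps at all time points.

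Of the tubulins, Tubb3 had a scaled coverage of 7268 and 6913 before KCl, 3488 and 3406 after 2 h, and 2822 and 3017 after 6 h. All 4 depolarized libraries were far below both controls, and both 6 h libraries were below both 2 h libraries. The log2 difference was -1.04 ± 0.05 (SE) at 2 h (limma adjusted p = 0.000139) and -1.28 ± 0.05 at 6 h (adjusted p = 4.71e-05), and both calls held in all 14 alternatives. The difference between 6 h and 2 h was smaller (-0.24 ± 0.05, adjusted p = 0.013) and was not called without replicate 1 of 6 h (-0.19, adjusted p = 0.0941). Tubb2b, a β-tubulin of developing brain, had 5692 and 6863 before KCl, 4867 and 5026 after 2 h, and 4314 and 4085 after 6 h. These 3 groups did not overlap, but the 0 h replicates were the farthest apart. The log2 difference was -0.34 ± 0.09 at 2 h (adjusted p = 0.042) and -0.57 ± 0.09 at 6 h (adjusted p = 0.00269). The 2 h call was lost without replicate 2 of 0 h (-0.20, adjusted p = 0.101) and without replicate 1 or 2 of 6 h (adjusted p = 0.0851 and 0.085), with median-of-ratios scaling (adjusted p = 0.0506), with the replicate block (adjusted p = 0.0503), and over every listed position (adjusted p = 0.113), whereas the 6 h call held in all 14 alternatives. Tubb2a had 3618 and 3806 before KCl, 2999 and 3119 after 2 h, and 3292.0 and 3291 after 6 h, so that the 2 h libraries were lowest and those of 6 h lay between. Its difference was -0.28 ± 0.05 at 2 h (adjusted p = 0.0102) and -0.17 ± 0.05 at 6 h (adjusted p = 0.0212), and both calls were lost without replicate 2 of 0 h (adjusted p = 0.0589 and 0.0958). The 6 h call was also lost without either 6 h library (adjusted p = 0.106 and 0.11). Over every listed position the 2 h call was lost (-0.27, adjusted p = 0.0843), the difference at 6 h against 0 h was -0.30, and that at 6 h against 2 h turned from 0.11 to -0.035 (adjusted p of 0.113 and 0.781), so the order of 2 h and 6 h depends on the positions used. Tuba1a, the α-tubulin, had 6272 and 6954 before KCl, 5797 and 6636 after 2 h, and 5963 and 5452 after 6 h. Its libraries overlapped between 0 h and 2 h and between 2 h and 6 h, and the difference of -0.21 ± 0.09 at 6 h against 0 h did not pass the test (adjusted p = 0.0834). It passed in 4 of 14 alternatives, which include the fits without replicate 1 or 2 of 2 h (adjusted p = 0.0198 in both) and over every listed position (-0.34, adjusted p = 0.0398).

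Tubulin genes resemble each other, and reads in shared sequence cannot be told apart. Of the 100-nt windows of the transcript, after changing every C to T, 72.6% in Tuba1a also occurred in a transcript of another gene (mostly Tuba1b and Tuba1c), 50.8% in Tubb2a, 43.0% in Tubb2b (mostly each other), and 26.1% in Stmn1 (a pseudogene). The share was 0.113% in Tubb3 and 0% in the other 5 genes. The Tubb3 values therefore rest on sequence that is nearly its own, and those of Tuba1a, Tubb2a, and Tubb2b are uncertain to that extent. Gene models that overlap Tuba1a and Stmn1 share some of their positions.

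The fall of Tubb3 ran along the measured part of the transcript, from nt 194 to 1693 of 1868, with 389 positions in the coding sequence, 35 in the 3′ UTR, and 0 in the 5′ UTR. All 424 Tubb3 cytosines listed in every library had a lower mean log2 coverage at 2 h and at 6 h than at 0 h. The 10th to 90th percentile of the log2 difference was -1.15 to -0.93 at 2 h and -1.45 to -1.10 at 6 h. In 4 equal parts of the transcript, in order from the 5′ end, the median difference was -1.12, -1.04, -1.05, and -1.09 at 2 h, and -1.41, -1.22, -1.33, and -1.30 at 6 h. Neighbouring cytosines share reads, so these positions are not independent.

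**Figure D2:**
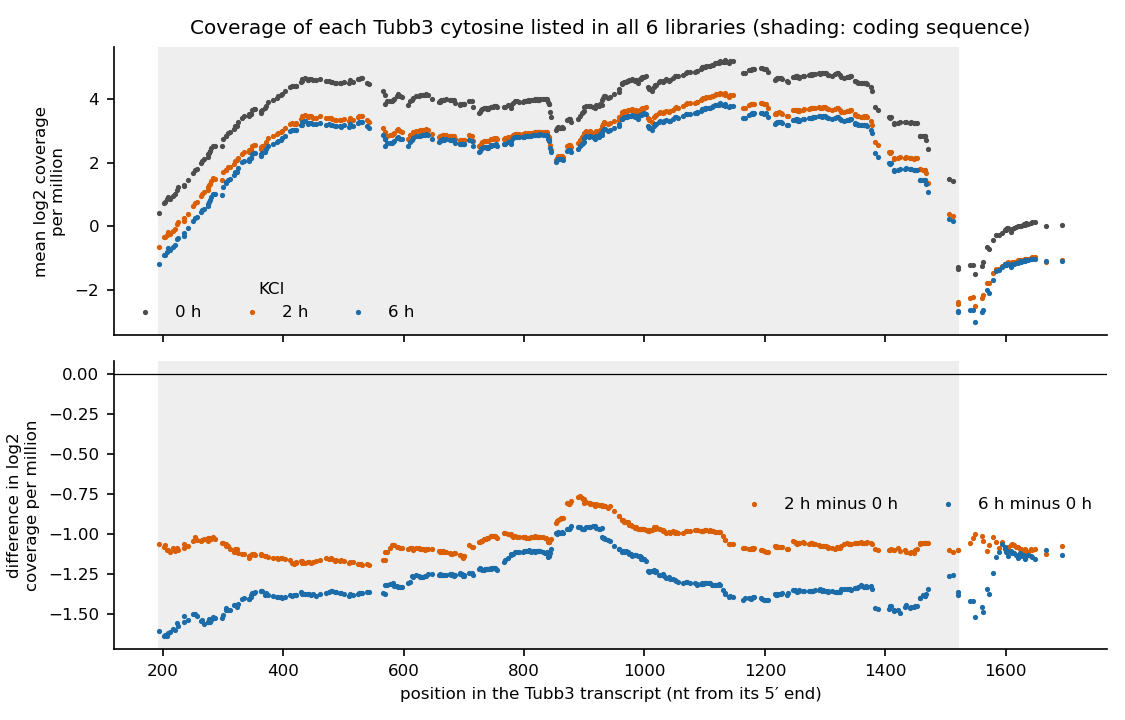
Coverage along the Tubb3 transcript (x axis, nt from its 5′ end) for the 424 cytosines listed in all 6 libraries. The upper panel gives the mean log2 scaled coverage at each time point and the lower panel its difference from 0 h, with shading from the first to the last coding cytosine. Every point in the lower panel lies below 0.

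Of the microtubule-associated proteins, Map1a, the heavier relative of Map1b that prevails in mature neurons, was measured at 32 cytosines in all libraries, the fewest of the set. It had 43.3 and 37.1 before KCl, 28.3 and 27.0 after 2 h, and 33.5 and 32.9 after 6 h. The 3 groups did not overlap, with 2 h lowest. Its log2 difference was -0.54 ± 0.09 at 2 h (adjusted p = 0.00913) and -0.27 ± 0.09 at 6 h (adjusted p = 0.037). The 6 h call was lost without replicate 1 of 0 h (-0.16, adjusted p = 0.144), without either 6 h library (adjusted p = 0.12 and 0.151), with median-of-ratios scaling (adjusted p = 0.0562), and over every listed position (adjusted p = 0.607), which also ended the 2 h call (adjusted p = 0.0998). The return from 2 h to 6 h, 0.26 ± 0.09, was at the limit (adjusted p = 0.0506). It passed in 8 of 14 alternatives, with a difference of 0.23 to 0.38 over all 14. Among the passes were the fits without either 0 h library (0.26 in both) and without replicate 1 of 2 h (0.30). The last of these leaves 2 h as 1 library and takes the spread from the other groups. Map1b, which prevails in growing axons, had 10699.5 and 9792 before KCl, 9305 and 8869 after 2 h, and 9903 and 9707 after 6 h. Both 2 h libraries were lowest, and the difference of -0.17 ± 0.06 did not pass the test (adjusted p = 0.0703). It did pass without replicate 1 of 2 h (-0.21, adjusted p = 0.0451), which leaves the lower 2 h library alone and takes the spread from the other groups.

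Map2 had 5983 and 5215 before KCl, 5613 and 3961 after 2 h, and 5897 and 5996 after 6 h. Replicate 2 of 2 h was the lowest and the 2 h replicates were the farthest apart of any gene of the set. No difference passed the test (adjusted p of 0.308, 0.661, and 0.141 for 2 h against 0 h, 6 h against 0 h, and 6 h against 2 h). Without replicate 1 of 2 h, which leaves the low library alone and assumes that it varies like the other groups, the differences were -0.50 against 0 h (adjusted p = 0.00257) and 0.59 for 6 h against 2 h (adjusted p = 0.00055). Mapt had 10627.7 and 10090.8 before KCl, 9996 and 10226 after 2 h, and 9216 and 9438 after 6 h. Only the 6 h libraries stood below the rest, with a difference of -0.15 ± 0.04 against 0 h (adjusted p = 0.0256). This call was lost without replicate 1 of 0 h (-0.11, adjusted p = 0.12), without either 6 h library (adjusted p = 0.149 and 0.0933), and with median-of-ratios scaling (-0.12, adjusted p = 0.0578).

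Of the stathmins, Stmn1, which is found in many dividing and immature cells, had 3988 and 4447 before KCl, 3906 and 4552 after 2 h, and 3799.9 and 3690.3 after 6 h. Both 6 h libraries were lowest, and the difference of -0.17 ± 0.09 against 0 h did not pass the test (adjusted p = 0.15). It passed without either 2 h library (adjusted p = 0.0367 and 0.0368), and 6 h against 2 h passed without replicate 1 of 2 h (-0.28, adjusted p = 0.0133), which leaves the higher 2 h library alone and takes the spread from the other groups. Stmn2, a stathmin of growing axons, had 6067 and 6535 before KCl, 5889.9 and 6757 after 2 h, and 6293 and 6226 after 6 h. The groups overlapped, and the log2 differences were 0.00 at 2 h and -0.01 at 6 h, each ± 0.08 (adjusted p of 0.984 and 0.932). Tubb3 and Stmn2, both markers of neurons, thus had different courses in the same libraries; the difference between the 2 genes was not tested.

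**Figure D3:**
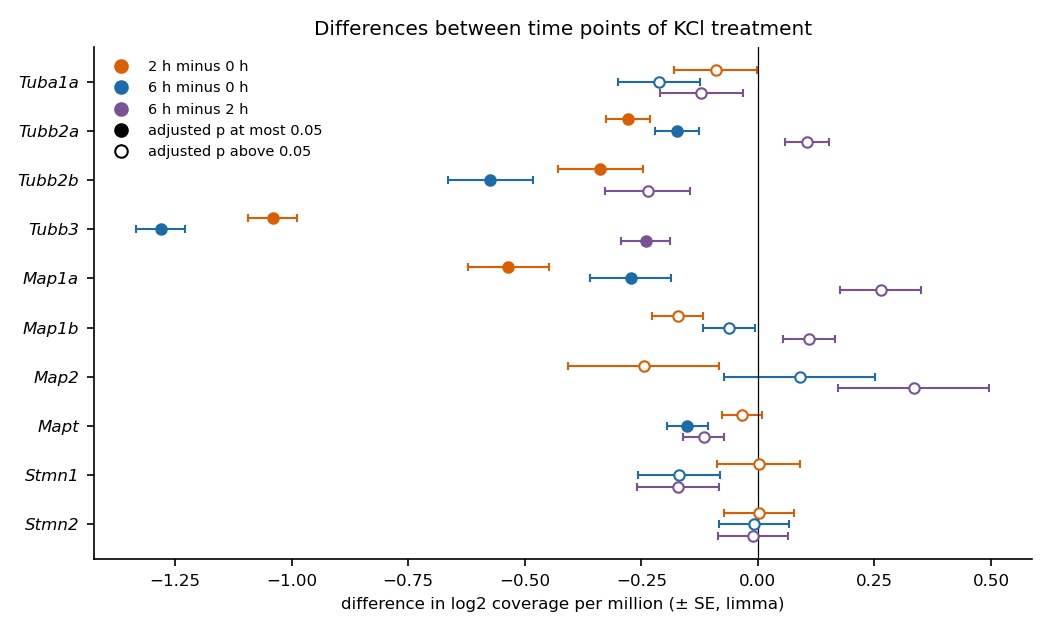
Differences in log2 scaled coverage between time points (x axis) for the 10 genes, with SE from limma. Filled points have an adjusted p of at most 0.05. Tubb3 lies farthest from 0, at -1.04 and -1.28, and Stmn2 lies at 0.00 and -0.01.

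Per cytosine, so that genes of different length can be set side by side, mean scaled coverage at 0 h was highest for Stmn1 (19.9 ± 1.53, SD, n = 2), followed by Tubb2b (18.3 ± 2.41), Tubb3 (16.7 ± 0.591), Tuba1a (15.7 ± 1.15), and Stmn2 (15.6 ± 0.821). Each of these 5 overlapped with its neighbour in the order. Tubb2a (9.92 ± 0.355) and Mapt (8.92 ± 0.327) followed and did not overlap, then Map1b (4.69 ± 0.294) and Map2 (4.34 ± 0.421), which did, and Map1a was lowest (1.26 ± 0.136). At 6 h, Tubb3 (6.89 ± 0.325) had moved below Tubb2a (8.80 ± 0.00133) and Mapt (8.03 ± 0.136), and both of its 6 h libraries were below all of theirs. These levels cover only cytosines with an unconverted read in every library, which favours well-covered ones.

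The genes whose profile over the 6 libraries was nearest to that of Tubb3 were Cdk5r1, Dtx4, and Pik3r1, out of 1711. Their Euclidean distance in centred log2 coverage was 0.182, 0.187, and 0.289, against a median of 1.35. Cdk5r1 encodes p35, the activator of the tau kinase Cdk5. Its scaled coverage was 292 and 271 before KCl, 140 and 135 after 2 h, and 129 and 128 after 6 h, with log2 differences of -1.03 and -1.14 against 0 h. Those of Dtx4 were -0.92 and -1.25, and those of Pik3r1, a regulatory subunit of phosphoinositide 3-kinase, -0.85 and -1.08.

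The wider microtubule system was taken from a list of 70 further genes, 39 of which were tested. At 2 h against 0 h, 6 of the 39 were lower and 3 higher, against 14.8% and 12% of all genes tested. At 6 h against 0 h, 14 were lower and 18 higher, against 32.1% and 26.4%, and at 6 h against 2 h, 6 were lower and 15 higher, against 24.9% and 21.1%. Their median log2 difference was -0.04 at 2 h and 0.18 at 6 h against 0 h, beside the -0.04 and -0.03 of all genes. All 4 tubulins tested were lower at 6 h, and 3 were lower at 2 h. Of these, Tubb4a had 319 and 296 before KCl, 140 and 135 after 2 h, and 162 and 170 after 6 h. Its log2 difference was -1.16 ± 0.06 at 2 h (adjusted p = 0.000139) and -0.89 ± 0.06 at 6 h (adjusted p = 0.00013), and it rose again by 0.28 ± 0.06 from 2 h to 6 h (adjusted p = 0.012), a call lost without replicate 2 of 6 h (adjusted p = 0.0891) and over every listed position (adjusted p = 0.166). Tubb4b fell by 0.69 ± 0.07 on the log2 scale at 2 h (adjusted p = 0.00186) and was -0.23 ± 0.07 at 6 h (adjusted p = 0.0325), a call lost without either 0 h library (adjusted p = 0.142 and 0.08), without replicate 1 of 6 h (adjusted p = 0.176), and over every listed position (adjusted p = 0.314). Tubb5, named here after its values were seen, had 10389 and 10125 before KCl, 7003 and 6628 after 2 h, and 6389 and 6686 after 6 h. It fell by 0.59 ± 0.05 on the log2 scale at 2 h (adjusted p = 0.000839) and fell by 0.65 ± 0.05 at 6 h (adjusted p = 0.000171).

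Of 15 MAPs and plus-end-tracking proteins tested, 2 were lower and 9 higher at 6 h against 0 h, against 32.1% and 26.4% of all genes, with a median of 0.33. Mapre1 (EB1, which tracks growing plus ends) had 1016 and 983 before KCl, 1210 and 1157 after 2 h, and 1371 and 1402 after 6 h, a rise of 0.24 ± 0.05 at 2 h (adjusted p = 0.0167) and of 0.47 ± 0.05 at 6 h (adjusted p = 0.000519). Map7d1, which helps kinesin-1 bind microtubules, rose by 0.25 ± 0.05 (adjusted p = 0.0183) and 0.54 ± 0.05 (adjusted p = 0.000414). Among the kinases of MAPs, Mark3 rose by 0.27 ± 0.06 at 2 h (adjusted p = 0.0244). Of these 2 h calls, that of Map7d1 held in 10 of 14 alternatives and those of Mapre1 and Mark3 in 9 of 14, and each was lost without any 1 of the 4 libraries of 0 h and 6 h (adjusted p of 0.0522 to 0.111). Between 2 h and 6 h, Clip1 (0.55 ± 0.07, adjusted p = 0.00257) and Dclk1 (0.56 ± 0.06, adjusted p = 0.00146) rose, and Clasp2 (-0.39 ± 0.05, adjusted p = 0.00256), the deglutamylase gene Agtpbp1 (-0.34 ± 0.06, adjusted p = 0.00752), and Stmn4 (-0.29 ± 0.07, adjusted p = 0.0175) were lower. The call of Stmn4 was lost without either 6 h library (adjusted p = 0.0734 and 0.105), and that of Agtpbp1 without replicate 1 of 6 h (adjusted p = 0.0604) and over every listed position (adjusted p = 0.305). Of 11 motors, 4 were lower and 5 higher at 6 h against 0 h, beside the same 32.1% and 26.4%. Kif5a, a kinesin-1 heavy chain, fell by 0.66 ± 0.05 at 6 h (adjusted p = 0.000168), and Kif1b, a kinesin-3, rose by 0.68 ± 0.06 (adjusted p = 0.000228).

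Few cytosines of these genes carried a methylation level that passed the standard filter (20 or more reads, of which 6 or more methylated, and a level from 10%). In both replicates of a time point, 1 position passed before KCl, 2 positions after 2 h, and 3 after 6 h, out of 2291, 2234, and 2550 in all genes. No position passed in Tuba1a, Tubb2a, Tubb2b, Tubb3, Stmn1, or Stmn2 in any library. Mapt had 1 position passing in a single library. The remaining positions were in Map1a, Map1b, and Map2.

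The Map1b cytosine was the only one that passed at all time points and in all 6 libraries. Its level was 19.7% (95% Wilson interval 18.3 to 21.1, 3025 reads) and 17.7% (16.2 to 19.3, 2240 reads) at 0 h, 25.3% (23.7 to 27.1, 2514 reads) and 25.6% (24.0 to 27.4, 2434 reads) at 2 h, and 19.5% (18.1 to 21.05, 2780 reads) and 19.0% (17.5 to 20.5, 2667 reads) at 6 h. The 2 h libraries stood above all others, and their intervals did not overlap with those of 0 h or 6 h. The mean was 18.7% ± 1.41, 25.5% ± 0.219, and 19.3% ± 0.396 (SD, n = 2). The intervals cover counting error only, since PCR copies were not separated. The 7 listed cytosines within 20 nt had levels of at most 1.17%, with a median of 0.184%. In Fisher's exact test on summed reads (two-sided, adjusted over all sites), the level was 6.82 percentage points higher at 2 h than at 0 h (adjusted p = 4.58e-14) and differed by -6.24 points at 6 h against 2 h (adjusted p = 5.51e-12). At 6 h against 0 h the difference was 0.575 points (adjusted p = 1). In a limma fit of the log2 methylated over unmethylated reads, which uses the spread between libraries, over 873 positions with at least 1000 reads in all libraries and a mean level of at least 1%, the 2 h difference passed (0.58 ± 0.10, adjusted p = 0.0235), and 6 h against 2 h did not (-0.52 ± 0.10, adjusted p = 0.111). The latter passed in 5 of 11 alternatives, among them with the library background subtracted (adjusted p = 0.019). Another of the 5 leaves out replicate 2 of 6 h (-0.49), so that 6 h is 1 library and the spread comes from the other groups. The limma call at 2 h was lost with the background subtracted (adjusted p = 0.116) and without each of the 4 libraries of 0 h and 2 h (adjusted p of 0.0663, 0.104, 0.197, and 0.22). In limma over all sites of the standard filter, the adjusted p was 0.921.

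The Map1a cytosine passed only at 2 h. Its level was 7.01% (4.29 to 11.2, 214 reads) and 4.37% (2.23 to 8.39, 183 reads) at 0 h, 19.3% (13.7 to 26.5, 145 reads) and 11.4% (6.66 to 18.9, 105 reads) at 2 h, and 9.79% (5.92 to 15.8, 143 reads) and 6.99% (4.13 to 11.6, 186 reads) at 6 h. Both 2 h libraries were highest, but the interval of replicate 2 of 2 h overlapped with those of the other time points and the interval of replicate 1 of 2 h with that of replicate 1 of 6 h. The position was tested because it passed the 10% limit at 2 h, and a higher level at 2 h was therefore favoured by the filter. Fisher's exact test gave 9.68 percentage points at 2 h against 0 h (adjusted p = 0.00062), which was lost without replicate 1 of 2 h (5.74 points, adjusted p = 0.33) and without replicate 2 of 0 h (8.36 points, adjusted p = 0.0513). The difference of -6.98 points at 6 h against 2 h (adjusted p = 0.0482) was lost without replicate 1 of 2 h (adjusted p = 0.933), without replicate 1 or 2 of 6 h (adjusted p = 0.0553 and 0.31), and with the replicate block in the Cochran-Mantel-Haenszel test (adjusted p = 0.0538). Map1a coverage was lowest at 2 h as well, as given above.

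**Figure D4:**
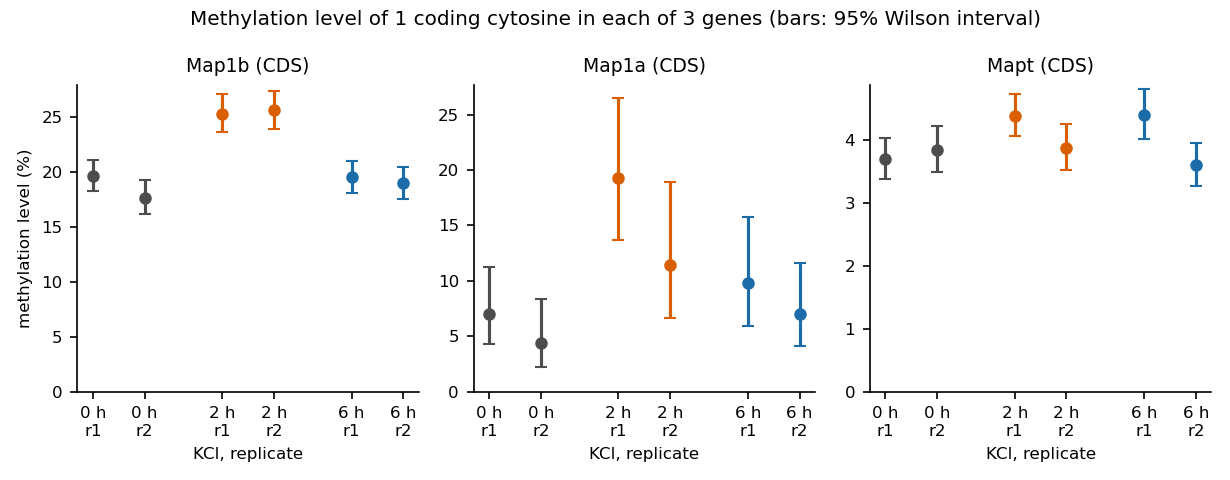
Methylation level (y axis, %, from 0, a scale of its own for each gene) of the Map1b, Map1a, and Mapt coding cytosines in each of the 6 libraries (x axis), with 95% Wilson intervals for counting error. The Map1b levels at 2 h, 25.3% and 25.6%, stand above the other 4 libraries, and the Mapt levels overlap at 3.60% to 4.40%.

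Both Map2 cytosines lie in a stretch of 69 nt (chr1:66441089-66441157) of the 3′ UTR in which 8 cytosines passed the filter in some library. They were covered by 23 to 61 reads where listed. The first had levels of 20.8% in replicate 1 before KCl, 6.00% and 7.89% after 2 h, and 25.0% and 26.1% after 6 h, and the second 16.0%, 4.92% and 4.88%, and 18.9% and 24.0%. Neither was listed in replicate 2 of 0 h, where 6 of the 8 were not listed and the other 2 had at most 1.59%. The median over the listed positions of the stretch was 18.2% and 1.47% before KCl, 4.27% and 7.52% after 2 h, and 14.3% and 22.2% after 6 h. The 0 h replicates were thus on either side of the 2 h libraries. Both positions were tested because they passed at 6 h, which favoured a higher level at 6 h. They lie close together and share reads, so their results are not independent. Fisher's exact test gave 18.6 and 16.6 points for 6 h against 2 h (adjusted p = 0.037 and 0.0341), and each call was lost without any 1 of the 4 libraries (adjusted p of 0.0664 to 0.281). Over all genes, Fisher's exact test called 9.45% of the sites at 2 h against 0 h, 7.23% at 6 h against 0 h, and 11.7% at 6 h against 2 h. The counts of this set are not read against these shares, since all of its tested positions but that of Map1b entered through the time point where they were high. The test also leaves out the spread between replicates. Limma over these sites called 0 positions of the set in each comparison (adjusted p of 0.244 for Map1a at 2 h against 0 h), and the Map2 positions could not enter it because they were not listed in all libraries.

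Irrespective of that filter, 21 positions of these genes had at least 1000 reads in every library and a mean level of at least 1%, of 5662 covered so deeply (0.371%, against 0.28% of such cytosines outside mitochondrial RNA and 0.509% with it). They were 14 in Tuba1a, 4 in Mapt, and 1 each in Map1a, Map1b, and Map2. Of the 14 in Tuba1a, 13 had their highest level in replicate 1 of 6 h, and 4 kept a mean of at least 1% over the other 5 libraries, as did all 7 in the other genes (counted after seeing the data). The 13 Tuba1a positions lie within 43 nt and share reads, so they are not independent. In all, 11 of the 21 kept such a mean over the other 5 libraries. The share of 0.371% thus depends on replicate 1 of 6 h. Tubb3, Tubb2a, Tubb2b, Stmn1, and Stmn2 had 0, of 374, 371, 338, 184, and 326 so covered. In limma, 1 of the 21 was called at 2 h against 0 h, the Map1b cytosine, against 2.86% of all 873, and 0 at 6 h against 0 h, against 1.6%, and 0 at 6 h against 2 h, against 0.229%. At an unadjusted p under 0.05, limma gave 1, 0, and 5 of the 21, and 116, 184, and 119 of the 873.

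Among these 21 deeply covered positions, the Mapt cytosine at codon 144 was the highest after that of Map1b. Its level was 3.70% and 3.84% before KCl, 4.39% and 3.88% after 2 h, and 4.40% and 3.60% after 6 h. The libraries overlapped, and the 15 listed cytosines within 20 nt had at most 0.186%, so that it stood out from its surroundings. A pair of cytosines in the 3′ UTR of Mapt had 2.96% to 3.91% (chr11:104331525-104331525) and 2.14% to 2.90% (chr11:104331734-104331734) over the 6 libraries. The Tuba1a cytosine at codon 142 had 2.12% and 2.53% before KCl, 1.72% and 1.50% after 2 h, and 1.81% and 1.08% after 6 h, and its difference of -0.73 ± 0.35 in log2 ratio at 6 h against 0 h did not pass (adjusted p = 0.29). A second Map1a cytosine at codon 1818 had 0.992% to 2.40%, and a Map2 cytosine in the 3′ UTR (chr1:66441843-66441843) had 1.21% to 1.61%. GGG at the place capitalised above followed 3 of the 21 positions (14.3%), those of Map1b, Mapt, and Tuba1a shown above, and 14.5% of the 477 positions outside mitochondrial RNA among the 873. It followed 1.55% of 2783 deeply covered cytosines of these genes with levels under 1%, and 1.46% of 45722 such cytosines in all genes. All 3 are among the 11 of the 21 that kept a mean of at least 1% without replicate 1 of 6 h. The 14.3% therefore depends on that library, and the 477 positions were not recounted without it.

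Replicate 1 of 6 h was higher over the unmethylated background of the tubulins. The unconverted share was computed for 450 genes at the deeply covered cytosines defined above, and Map1a had too few of these. Tubb2b had 0.112% and 0.0920% before KCl, 0.123% and 0.114% after 2 h, and 0.294% and 0.123% after 6 h. Tuba1a had 0.107% and 0.127%, 0.109% and 0.127%, and 0.234% and 0.127%, and Tubb3 had 0.0767% and 0.0719%, 0.0854% and 0.0796%, and 0.191% and 0.0846%. For each tubulin, replicate 1 of 6 h was above all other libraries. The ratio of replicate 1 to replicate 2 of 6 h was 2.39 for Tubb2b, 2.26 for Tubb3, 1.85 for Tuba1a, and 1.66 for Tubb2a, against a median of 1.27 over the 450 genes (quartiles 1.08 and 1.48). It was 1.60 for Stmn1, 1.45 for Stmn2, 1.43 for Mapt, 1.30 for Map1b, and 1.14 for Map2. Relative to the share of the library, limma called 0 of the 9 genes in each comparison, and 0% of the 450. At an unadjusted p under 0.05, limma gave 0, 2, and 0 of the 9 genes, and 24, 43, and 41 of the 450, for 2 h against 0 h, 6 h against 0 h, and 6 h against 2 h. The Map1b levels, 17.7% to 25.6%, were far above these shares in every library.

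**Figure D5:**
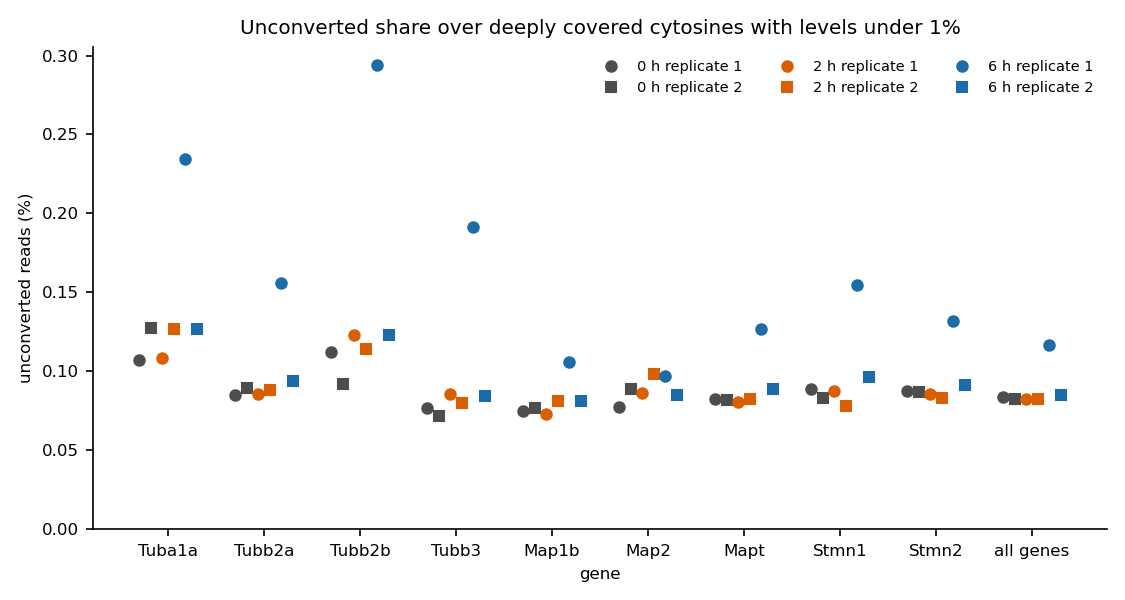
Unconverted reads (y axis, %, from 0) at cytosines covered 5000 times or more whose level stayed under 1%, for 9 of the genes and for all genes together. Colours give the time point and symbols the replicate. Replicate 1 of 6 h is highest for 8 of the 9 genes, with 0.294% for Tubb2b.

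Coverage of the 3′ UTR relative to the coding sequence was tested for 7 of the genes, and Map1a, Tubb2a, and Tubb2b had too few positions. The ratio of mean coverage was 0.157 and 0.164 for Tuba1a before KCl, 0.151 and 0.140 after 2 h, and 0.111 and 0.121 after 6 h. Both 6 h libraries were lowest, and the log2 difference of -0.47 ± 0.10 passed (adjusted p = 0.0363). It rests on 24 positions of the 3′ UTR, and it was lost with the median in place of the mean (-0.13, adjusted p = 0.821), without replicate 2 of 0 h (adjusted p = 0.212), and without replicate 1 or 2 of 6 h (adjusted p = 0.128 and 0.0828). Tubb3, the gene whose coverage fell most, had ratios of 0.0498 and 0.0469, 0.0534 and 0.0413, and 0.0477 and 0.0584, which overlapped. Map1b ranged from 0.260 to 0.294, Map2 from 0.708 to 0.809, Mapt from 0.338 to 0.392, Stmn1 from 0.267 to 0.339, and Stmn2 from 0.153 to 0.197. Of the 7 genes, 0 were called at 2 h against 0 h, against 1.11% of 630 genes, 1 at 6 h against 0 h, against 2.7%, and 0 at 6 h against 2 h, against 1.43%. At an unadjusted p under 0.05, limma gave 1, 1, and 2 of the 7 genes, and 90, 122, and 68 of the 630.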

How the data were processed

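RNA BS-seq of poly(A) RNA was analysed in 6 libraries, grouped by the KCl time in the sample labels. Reads were trimmed by the authors and mapped to mm10 with meRanTK, and cytosines were called per library. The authors deposited, for each listed position, read counts (coverage, unconverted, and other bases), not normalized, and the methylation level as a fraction, unconverted reads over unconverted and converted reads. The submitters' processing notes name R 4.1.1. The deposited p-values were not used. The deposited lists cover 10 reads or more, and depth sets the intervals given.

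The members and lists were chosen with earlier results of these data known. Positions with reference C and state M were assigned by the gene column and placed in GENCODE M21 segments. Of the member positions, 9413 of 9599 had the transcript's own 21-nt context. Coverage scaled to a sum of 1000000 was tested with limma 3.58.1 (trend, Benjamini-Hochberg over 1712 genes). Sites passing in both replicates of any time point were tested with Fisher's exact test, the test of the study's methods. Both tests were run on simulated data. The simulated reads for Fisher's exact test held no spread between replicates, so they could not show false calls from that spread. Low-level positions, 3′ UTR ratios, and unconverted shares were tested with limma, on log2 with 0.5 added to the reads for levels. An adjusted p of at most 0.05 was called. Named were all members, member positions passing in both replicates, the 10 low-level positions of highest level (3 of them, in Tuba1a, are not reported here), up to 3 called rises and falls per comparison among other microtubule genes, and the 3 profiles nearest to that of Tubb3. Of the study's filters on sites, only the standard filter and presence in both replicates were applied; the 3C, signal/noise, false discovery rate, and secondary structure filters were not, so the site set is not the study's. Alternatives were other scalings, minimums, tests, site sets, the replicate block, and each library left out. Python 3.11.15, scipy 1.17.1, pandas 2.3.3, statsmodels 0.14.6, and R 4.3.3 were used.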

Additional observations from a re-analysis of the deposited data

How the results depend on the processing

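Leaving out each library in turn gave 182 to 548 called genes for coverage at 2 h against 0 h (460 with all libraries), 699 to 1164 at 6 h against 0 h (1001), and 436 to 885 at 6 h against 2 h (789), with 2 to 6, 2 to 7, and 0 to 4 of the 10 genes. The 3′ UTR ratio gave 1 to 20, 2 to 55, and 1 to 13 genes (0, 0 to 1, and 0 of the set), site levels by Fisher's exact test 168 to 267, 147 to 509, and 224 to 591 sites (1 to 2, 0, and 1 to 4), low-level positions 2 to 59, 4 to 308, and 1 to 239 (0 to 1, 0 to 13, and 0 to 14), and the unconverted share 0 throughout. Without 1 library, 1 to 3 positions passed the filter at 0 h, 3 at 2 h, and 6 to 11 at 6 h, since a single replicate then stood for its time point.

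Over every listed position, limma called 1 gene of the set at 2 h against 0 h, 2128 genes in all at 6 h against 0 h, and 1678 in all with 3 of the set at 6 h against 2 h, and Dtx4 then turned from -0.33 to 0.26 (adjusted p = 0.57). With at least 5 positions per gene, 845, 1707, and 1404 genes were called, with 2 of the set in the last comparison. Median-of-ratios scaling gave 3 of the set at 6 h against 0 h and 2 at 6 h against 2 h, and a fit with no intensity trend 2 in the latter. The absolute unconverted share called 1 gene at 6 h against 2 h. Medians of coverage in the 3′ UTR ratio gave 3, 11, and 2 genes in the order of the comparisons, and at least 30 positions per segment gave 8 at 6 h against 0 h, each with 0 of the set at 6 h against 0 h.

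Deviations of replicates with the same number correlated at r = 0.44 between 0 h and 2 h, -0.30 between 0 h and 6 h, and -0.28 between 2 h and 6 h over 1712 genes, so the numbers were not taken as pairs. The replicate block gave 393, 983, and 770 genes for coverage, with 3, 5, and 2 of the set, 5 and 7 genes for the unconverted share at 6 h against 0 h and 6 h against 2 h, and 22 and 4 low-level positions in the same comparisons. With the 6 h numbers crossed in the replicate block, chosen after seeing the data, 529, 1063, and 873 genes were called, with 5, 7, and 5 of the set, which then included Map1b in the first comparison and Tuba1a and Stmn1 in the other two.

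For site levels, limma called 18, 0, and 2 sites (196, 153, and 173 at an unadjusted p under 0.05), limma with the replicate block, chosen after seeing the data, 46, 25, and 33, and the quasi-binomial test 0, 0, and 0 (94, 46, and 54 unadjusted), each with 0 sites of the set. At 6 h against 2 h, a coverage of at least 50 left 2 of the set called, sites passing in at least 1 library gave 547 calls, and positions of the study's list gave 194 with 2 of the set. For low-level positions, Fisher's exact test called 323, 532, and 469 (5, 14, and 15 of the set), subtraction of the library background 40, 38, and 31 (0, 0, and 1), and a mean level of at least 2% 39, 53, and 9 (1 of the set in the last). A coverage of at least 2000 gave 10 at 2 h against 0 h and 1 of the set at 6 h against 2 h. Positions passing the filter were 2 at 0 h and 6 at 6 h with a level of at least 5%, 3 and 6 with at least 3 methylated reads, 3, 4, and 14 with either replicate, and 1 at 6 h with a coverage of at least 50. The other 227 recomputed counts stayed within 1.5 times their value, and the causes of the changes were not tested. Depth limited Map1a most, with 32 cytosines listed in all libraries, and both Map2 sites, with at most 61 reads.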
